A study of Mus musculus with 2 samples.

Results

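Regulatory T cells were selected from a mouse tumour pool by a gate on single-cell counts. A barcode was a member if it had at least 500 genes, under 15% mitochondrial UMIs (unique molecular identifiers, counts of captured RNA molecules), at most 1 UMI of the keratins Krt8 and Krt18, at least 2 UMIs of Cd3d, Cd3e, Cd3g, Trbc1 and Trbc2, no UMI of Cd8a or Cd8b1, and at least 2 UMIs of Foxp3, Il2ra, Ikzf2 and Tnfrsf4. The gate held 320 of the 9747 barcodes (3.28%) and 33.7% of the 950 T cell barcodes. After 30 members with more than 1 antibody tag were left out as likely doublets, 290 members remained and were set against 573 other T cells. These were the 255 without Cd8 UMIs and the 318 with them.

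The study examined an ACSS2 inhibitor (ACSS2i) in triple negative breast cancer. Cells of 3 vehicle and 3 ACSS2i treated tumours were marked with antibody tags, pooled and run as 1 expression library of polyA RNA. The strain field reads "NGS mouse", and the design text of the series refers to Bmal1 status, which no label ties to a sample. The 6 tags carry the names U2, U3, U4, D0, D1 and D4, and the labels do not say which tag belongs to which arm, so no comparison of ACSS2i with vehicle was made and every value below is a level or a difference between cell classes within the pool, with no p-value.

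Regulatory T cells are a CD4 lineage that restrains other lymphocytes and keeps tolerance to self. Their identity rests on the transcription factor Foxp3. Most carry the high-affinity interleukin-2 receptor chain Il2ra (CD25), the Ikaros factor Ikzf2 (Helios) and the costimulatory receptor Tnfrsf4 (OX40), and they act in part through Ctla4, which takes the ligands CD80 and CD86 away from antigen-presenting cells. In tumours an activated form with high Icos, Tnfrsf18 and interleukin-10 pathway genes is commonly described. Ikzf2 is also made by some natural killer (NK) cells and innate-like lymphocytes.

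Members had a median of 1725 UMIs per cell (747 to 15503) and other T cells 1645 (771 to 15997), and the summed UMIs were 665545 for members and 1233749 for other T cells. Ribosomal protein genes took 23.3% of the UMIs of members and 31.1% of those of other T cells. Levels are given as CPM, counts per 1000000 UMIs. Intervals below are exact 95% intervals and cover counting error only. The tags are 6 separately marked samples, but a tag held as few as 18 members, and nothing in the labels gives their animals.

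The gate genes chose the members, so their levels are a description. Foxp3 UMIs were seen in 65 members (22.4%), Il2ra in 126 (43.4%), Tnfrsf4 in 205 (70.7%) and Ikzf2 in 242 (83.4%). All 4 gate genes were seen in 32 members and only 1 of them in 92. Foxp3 stood at 132 CPM in members and 4.05 CPM in other T cells, and Ikzf2 at 1525 CPM in members and 214 CPM in other T cells. In the 37 members with exactly 2 gate UMIs, just inside the threshold, Ctla4 stood at 210 CPM. In the 58 T cells without Cd8 UMIs and with 1 gate UMI, just outside it, Ctla4 stood at 86.3 CPM. Icos and Maf were also higher inside, at 228 and 173 CPM, than outside, at 92.9 and 66.3 CPM. Cd4 was not, at 54.8 CPM inside and 66.3 CPM outside, and Tnfrsf18 was near level, at 265 and 252 CPM. Granzyme C (Gzmc) stood at 8527 CPM inside and 14165 CPM outside, against 890 CPM in members with 4 or more gate UMIs. Tyrobp, an NK receptor adaptor, stood at 904 CPM inside, 1373 CPM outside and 271 CPM with 4 or more. A further 61 T cells with 2 or more gate UMIs were outside because they had a Cd8 UMI, and their Ctla4 level was 215 CPM.

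Ctla4 was the one marker of the label that the gate did not use. It ranged over the tags from 511 to 931 CPM in members, with a median of 670, against 16.2 to 190 CPM, with a median of 114, in other T cells. The 2 sets of 6 tag values did not overlap, which held for 1.57% of all genes tested. Pooled, Ctla4 stood at 682 CPM (621 to 748) in members and 112 CPM (94.0 to 132) in other T cells, a ratio of 6.10 (5.03 to 7.43). After each cell was thinned to 1000 UMIs, which left 258 members and 542 other T cells, 45.3% of members and 8.49% of other T cells had a Ctla4 UMI. Before thinning the shares were 57.2% of members and 16.2% of other T cells. Of 3681 thinned tumour cells, which should lack the gene, 0 had one, which allows a share of up to 0.0815% when a count of 0 is read as at most 3 cells, and 0.0543% had one before thinning. Cd4, the coreceptor of helper and regulatory T cells, was seen in 14.3% of thinned members and 2.77% of thinned other T cells. Cd4 stood at 110 CPM in members and 23.5 CPM in other T cells, and was higher in members in 5 of 6 tags. The gate excluded cells with Cd8 UMIs, so part of this gap can follow from how members were chosen. Cd4 stood at 46.1 CPM in other T cells without Cd8 UMIs and 3.09 CPM in those with them. Members were called higher against both. The call against all other T cells was missed, at a median log2 ratio of 0.99, without the barcodes with NK genes described below.

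**Figure D1:**
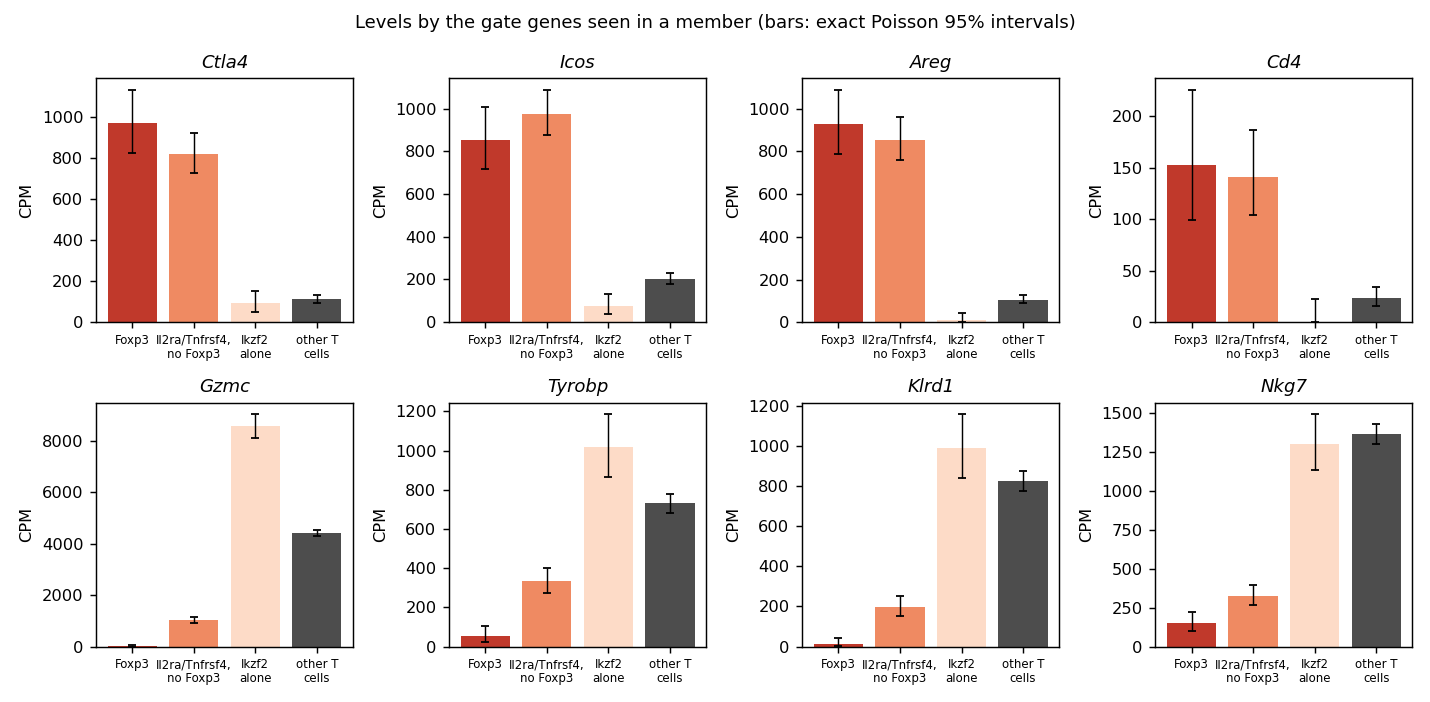
Levels in CPM (vertical axes, from 0) of 8 genes in members with Foxp3 UMIs, members with Il2ra or Tnfrsf4 but no Foxp3 UMIs, members with Ikzf2 UMIs alone, and other T cells; bars are pooled levels with exact Poisson 95% intervals. Ctla4, Icos, Areg and Cd4 are high in the first 2 groups and low in members with Ikzf2 alone, where Gzmc, Tyrobp and Klrd1 are high.

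The data went against the label most clearly for 1 group of members. In 60 members (20.7%) Ikzf2 was the only gate gene seen, and their median depth was 2216 UMIs, against 1771 with Foxp3 UMIs and 1585 in the remaining members. Ctla4 stood at 93.5 CPM in these 60, against 970 CPM in the 65 members with Foxp3 UMIs and 820.5 CPM in the 165 with Il2ra or Tnfrsf4 UMIs but no Foxp3 UMI. No Cd4 UMI was counted in them, which allows up to 18.7 CPM when a count of 0 is read as at most 3 UMIs, while Cd4 stood at 153 and 141 CPM in the 2 other groups. Maf, a factor of interleukin-10 producing T cells, stood at 24.9 CPM in the Ikzf2-alone cells, against 909 CPM with Foxp3 and 689 CPM with Il2ra or Tnfrsf4.

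Genes of cytotoxic and NK cells ran the other way. At least 2 UMIs of the NK genes Ncr1, Klrb1c, Klre1, Tyrobp and Fcer1g were counted in 46 of the 60 Ikzf2-alone members (76.7%), in 1 of the 65 with Foxp3 UMIs (1.54%), in 10.3% of the 165 others and in 24.3% of other T cells. Macrophages of the pool share some of these genes, with Tyrobp in 89.8% of thinned macrophages. At least 2 UMIs of a wider list of 9 NK genes were counted in 99.8% of macrophages, with Ncr1 and Klrb1c at 0. The NK counts here and below can therefore also take in barcodes with macrophage RNA. Granzyme C (Gzmc) stood at 8566 CPM in the Ikzf2-alone members, 12.2 CPM with Foxp3 and 1023 CPM with Il2ra or Tnfrsf4. Its 1374 UMIs in the Ikzf2-alone members came from 19 of the 60 cells. The 349 Gzmc UMIs with Il2ra or Tnfrsf4 came from 14 of the 165 cells. Tyrobp, a signalling adaptor of NK receptors, stood at 1016 CPM with Ikzf2 alone, 54.9 CPM with Foxp3 and 334 CPM with Il2ra or Tnfrsf4. These 60 barcodes are therefore called members with Ikzf2 UMIs alone below, without a cell type name, and some results below are also given without them. This split was made after the values were seen and carries no test. The plot of levels by the gate genes seen shows it for 8 genes.

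Members with Foxp3 UMIs and those with Il2ra or Tnfrsf4 but no Foxp3 UMI were close in some genes and apart in others. Icos stood at 854 CPM with Foxp3 and 976 CPM with Il2ra or Tnfrsf4, and Tnfrsf18 at 989 CPM with Foxp3 and 967 CPM with Il2ra or Tnfrsf4. Penk, the precursor of enkephalin peptides, stood at 311 CPM with Foxp3 and 815 CPM with Il2ra or Tnfrsf4, but the shares of cells with a Penk UMI ran the other way, at 23.1% of the 65 with Foxp3 and 19.4% of the 165 others, with overlapping intervals. Ifng had 0 UMIs with Foxp3, which allows up to 18.3 CPM, and stood at 261 CPM with Il2ra or Tnfrsf4. Its 89 UMIs there came from 16 of the 165 cells (9.70%). Klrd1 stood at 12.2 CPM with Foxp3 and 199 CPM with Il2ra or Tnfrsf4, and Pdcd1 at 48.8 CPM with Foxp3 and 170 CPM with Il2ra or Tnfrsf4. A Foxp3 UMI can be missed at this depth, so absence of one does not mark a cell as lacking Foxp3. Whether all of these 165 cells are regulatory T cells was not tested.

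**Figure D2:**
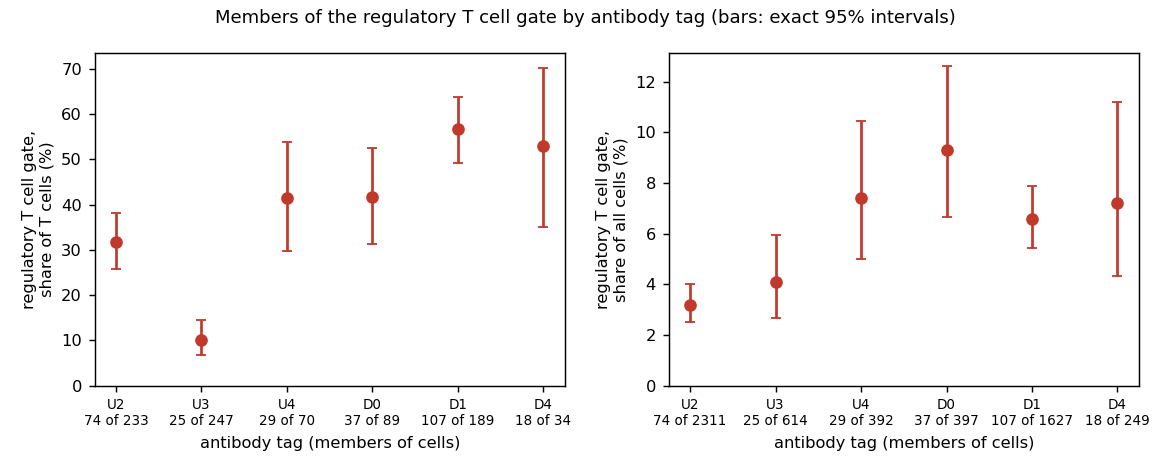
Share of the regulatory T cell gate among T cells (left, %) and among all barcodes with 1 tag past the gene and mitochondrial limits (right, %), by antibody tag, as points with exact 95% intervals; the numbers under each tag are members and cells counted. The share of T cells is lowest in U3, at 10.1%, and highest in D1, at 56.6%.

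Members made up 33.6% (30.5 to 36.9) of the 863 T cells with at most 1 tag. By tag the share was 31.8% in U2, 10.1% in U3, 41.4% in U4, 41.6% in D0, 56.6% in D1 and 52.9% in D4. U3 stood below and its interval, 6.66 to 14.6%, met no other, while the intervals of U4, D0, D1 and D4 overlapped. Among T cells without Cd8 UMIs U3 was again the lowest, at 19.4%, and the other tags ran from 53.7% in U4 to 75.0% in D4. As a share of all cells of the tag the values ran from 3.20% in U2 to 9.32% in D0, with U3 at 4.07%. D1 gave 107 members (36.9%) and U2 gave 74 (25.5%), so pooled levels lean on these 2 tags, and the gene calls below therefore also use the median over tags.

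A gene was called higher or lower in members when the intervals of the 2 pooled CPM values were apart and the median over tags of the within-tag log2 ratio, on (CPM + 20), reached 1 in size. Genes of the gate were left out of the counts. Against other T cells, 121 of 7277 genes tested (1.66%) were called higher in members and 40 (0.55%) lower. Of the 121, 74 were higher in all 6 tags, and of the 40, 23 were lower in all 6. The 6 tag values of members and the 6 of other T cells did not overlap for 114 genes tested (1.57%). Of these 114, 35 were called higher and 3 lower. With scaling by trimmed means (TMM) the counts were 79 higher and 65 lower, and with totals taken without mitochondrial and ribosomal protein genes 123 higher and 74 lower, so that 54.9% of calls were higher under TMM and 62.4% with those totals, against 75.2% with plain totals. The median log2 ratio over all genes tested was 0.04 with plain totals and -0.06 under TMM, a shift that list medians below carry too. Without the members with Ikzf2 alone, 208 genes were called higher and 116 lower.

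**Figure D3:**
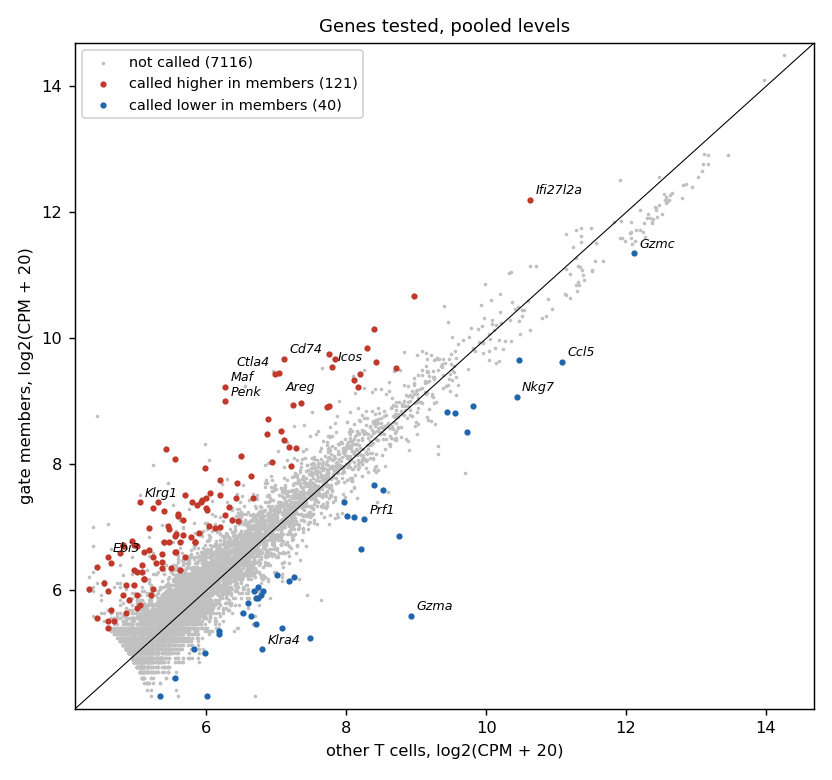
Pooled levels of the 7277 genes tested, log2(CPM + 20), in gate members (vertical) and other T cells (horizontal); each point is a gene, the line marks equal levels, red points are the 121 called higher in members and blue points the 40 called lower. Ctla4, Maf and Penk lie far above the line, and Gzma far below it.

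Of 16 tested genes of a list of regulatory T cell genes outside the gate, 9 were called higher and none lower, against 1.66% and 0.55% of all genes, with a median log2 ratio of 1.02. They were Ctla4, Tnfrsf18, Tnfrsf9, Izumo1r, Lrrc32, Itgae, Ikzf4, Il10 and Ebi3. Tnfrsf18 (GITR), a TNF receptor that lowers the suppressive activity of these cells when engaged, ranged from 443 to 931 CPM over the tags in members, with a median of 864, against 97.0 to 623 CPM, with a median of 233, in other T cells. It was higher in members in 6 of 6 tags, with a median log2 ratio of 1.79, and 1 other T cell value, in D4, reached the range of members. Izumo1r (folate receptor 4) stood at 150 CPM in members and 19.5 CPM in other T cells. Ikzf4 (Eos), a partner of Foxp3 in gene silencing, stood at 85.6 CPM in members and 11.3 CPM in other T cells, and its tag values did not overlap, from 41.1 to 120 CPM in members against 0 to 33.7 CPM in other T cells. The Ikzf4 call was lost when cells needed 1000 genes, at a median log2 ratio of 0.49. Tnfrsf9 (4-1BB) was called at 771 CPM in members and 324 CPM in other T cells, yet D4 was lower in members, with 661 CPM, than in other T cells, with 1650 CPM. Its median log2 ratio of 1.02 came to 0.90 without U2, U3 or U4 and to 0.89 under TMM, which ended the call. Itgae (CD103), an integrin that binds E-cadherin, was higher in 4 of 6 tags only, and its median log2 ratio of 1.31 turned to -0.14 when cells needed 1000 genes, where 4 genes of the list were called in place of 9.

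Of 17 tested genes of the activated tumour form, 10 were called higher and none lower, with a median log2 ratio of 1.32. They were Icos, Klrg1, Il1r2, Prdm1, Maf, Penk, Samsn1, Areg, Hif1a and Itgb8. Icos, a costimulatory receptor that sustains these cells, ranged from 262 to 1081 CPM over the tags in members, with a median of 764, against 123 to 716 CPM, with a median of 192, in other T cells. It was higher in members in all 6 tags, and the groups overlapped, since other T cells of D4, with 716 CPM, were above the members of U2, U3 and U4. Maf ranged from 386 to 960 CPM in members, with a median of 576, against 13.6 to 187 CPM, with a median of 75.1, in other T cells. The Maf values did not overlap, and the pooled ratio was 10.3 (7.95 to 13.5). Klrg1, a receptor of late effector lymphocytes, stood at 149 CPM in members and 13.0 CPM in other T cells, again with no overlap over the tags. Hif1a, the oxygen-sensitive transcription factor, stood at 902 CPM in members and 293 CPM in other T cells, and Samsn1, an adaptor that dampens lymphocyte signalling, at 469 CPM in members and 195 CPM in other T cells. The Samsn1 call was lost under TMM, at a median log2 ratio of 0.91, when a member needed a Foxp3 UMI, at 0.60, and when cells needed 1000 genes, at 0.92. Where a member needed a Foxp3 UMI, here and below, the remaining gate cells were counted among all other T cells. A call lost in that setting is therefore not a comparison with T cells outside the gate alone. Samsn1 stood at 592 CPM in members with Foxp3 UMIs.

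Areg and Penk varied widely among the tags. Areg (amphiregulin), a ligand of the epidermal growth factor receptor used in tissue repair, ranged from 144 CPM in U4 to 1110 CPM in D0 in members, with a median of 370, against 0 to 321 CPM, with a median of 105, in other T cells. In D4 the 2 classes were close, with 270 CPM in members and 280 CPM in other T cells. Tumour cells also held Areg, with a UMI in 14.97% of thinned cells, against 24.4% of thinned members and 3.32% of thinned other T cells. Penk ranged from 39.3 CPM in U4 to 798 CPM in U2 in members, with a median of 260, against 0 to 202 CPM, with a median of 70.0, in other T cells. U4 alone ran the other way, with 202 CPM in other T cells. Penk was also the gene whose direction turned when a member needed a Foxp3 UMI and the remaining gate cells were counted as other T cells, with a median log2 ratio of -0.89.

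**Figure D4:**
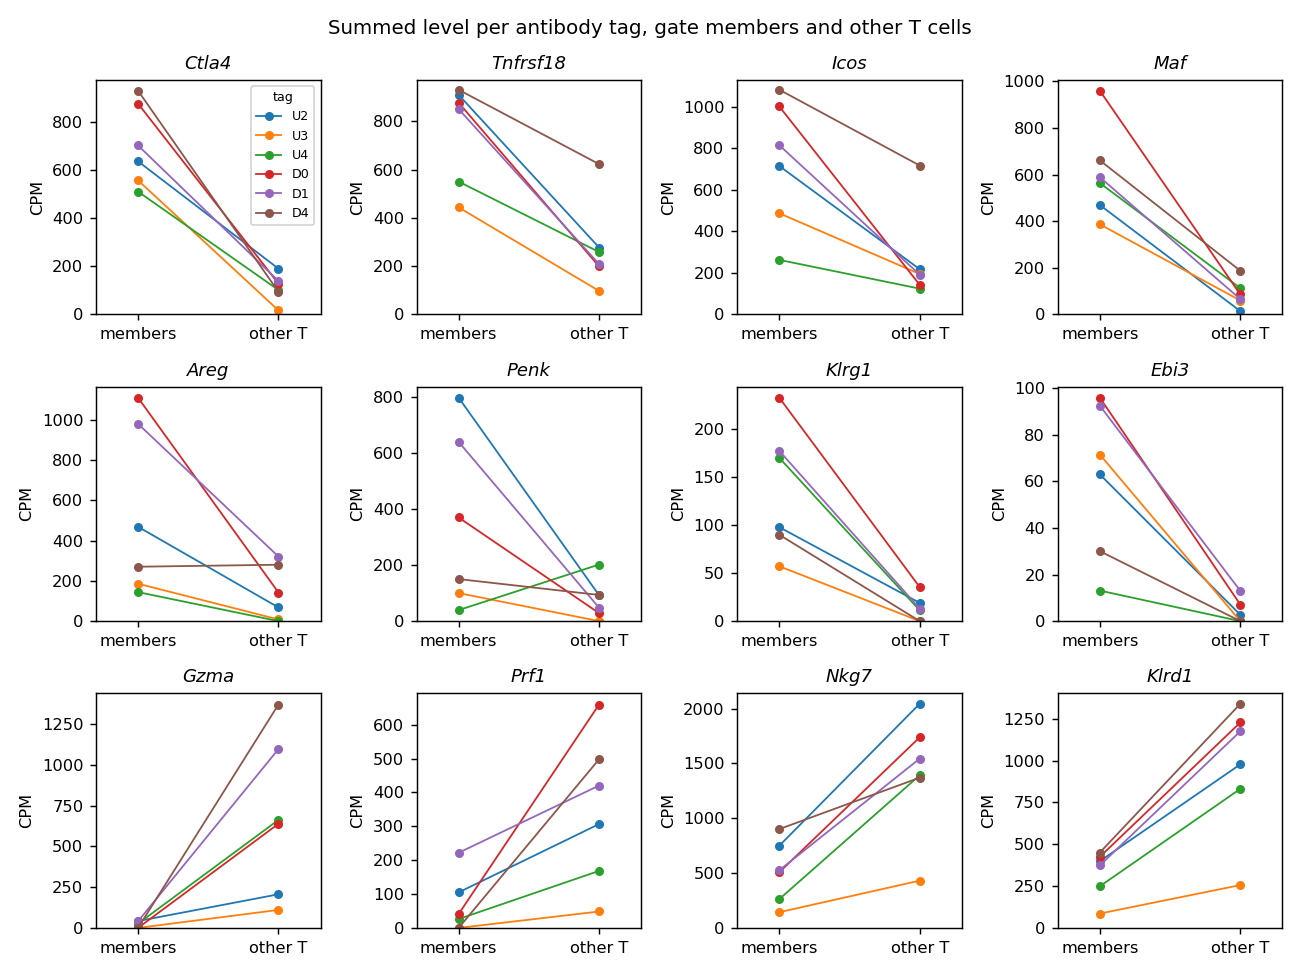
Levels in CPM (vertical axes, from 0) of 12 genes in gate members (left) and other T cells (right), 1 coloured line for each of the 6 antibody tags. Ctla4, Maf, Klrg1 and Ebi3 are higher in members in every tag, Areg is level in D4 and Penk is lower in U4, and Gzma, Prf1, Nkg7 and Klrd1 are lower in members in every tag.

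Among 15 tested suppressive effectors, 6 were called higher and 1 lower. The lists share genes, and all 6 were already counted in the 2 regulatory T cell lists above. Ebi3, a subunit of interleukin-35, stood at 72.1 CPM (53.2 to 95.6) in members and 4.05 CPM (1.32 to 9.46) in other T cells, and its lowest tag value in members, 13.1 CPM in U4, was just above the highest in other T cells, 13.0 CPM in D1. Its median log2 ratio of 1.82 came to 0.78 with cells thinned to 1000 UMIs and to 0.79 when a member needed a Foxp3 UMI, both of which ended the call, and the call was also lost at 1.62 when cells needed 1000 genes. Itgb8, an integrin chain that helps to activate latent transforming growth factor beta, stood at 66.1 CPM in members and 4.86 CPM in other T cells, and its call too was lost when cells needed 1000 genes. The other genes called higher here were Ctla4, Areg, Il10 and Lrrc32. Perforin (Prf1) was the gene called lower. Within the Ikaros family and other factors, 4 of 24 tested genes were called higher and none lower, which were Maf, Ikzf4, Rora and Prdm1. Only Rora was not already counted above. Rora, a nuclear receptor, stood at 475 CPM in members and 130 CPM in other T cells, and Prdm1 (Blimp-1) at 67.6 CPM in members and 21.1 CPM in other T cells. The Prdm1 call was lost with the mean of per-cell CPM, at a median log2 ratio of 0.90, and with barcodes of more than 1 tag kept, at 0.77.

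Promoters of 3 genes are shown because they are the factor that names the cell type, the marker outside the gate and a gene that, of those of the 12 highest called genes whose promoter was found, alone held 2 of the motifs searched. Foxp3 spans positions 7573644 to 7595245 of chromosome X and Ctla4 positions 60887000 to 60915832 of chromosome 1, both on the plus strand (GENCODE M21, GRCm38). Sequences are from RefSeq on GRCm38.p6, the 250 bases before the RefSeq start, which for Foxp3 and Ctla4 lies inside the longer GENCODE span, on the plus strand, at chrX:7579426-7579675 for Foxp3, chr1:60908775-60909024 for Ctla4 and chr2:151572373-151572622 for Sdcbp2, a syntenin family scaffold gene. In capitals stand a forkhead motif, TGTTTAC, and an AP-1 motif, TGANTCA.
Foxp3: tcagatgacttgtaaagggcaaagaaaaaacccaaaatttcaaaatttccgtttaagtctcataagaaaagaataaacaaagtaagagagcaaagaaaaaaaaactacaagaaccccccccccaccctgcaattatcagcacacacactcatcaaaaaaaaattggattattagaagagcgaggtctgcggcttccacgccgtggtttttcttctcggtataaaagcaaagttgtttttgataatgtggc
Ctla4: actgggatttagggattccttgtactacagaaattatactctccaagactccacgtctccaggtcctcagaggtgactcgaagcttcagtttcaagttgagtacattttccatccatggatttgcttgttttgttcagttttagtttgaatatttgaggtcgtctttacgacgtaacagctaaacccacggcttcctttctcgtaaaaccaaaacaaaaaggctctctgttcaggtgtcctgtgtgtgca
Sdcbp2: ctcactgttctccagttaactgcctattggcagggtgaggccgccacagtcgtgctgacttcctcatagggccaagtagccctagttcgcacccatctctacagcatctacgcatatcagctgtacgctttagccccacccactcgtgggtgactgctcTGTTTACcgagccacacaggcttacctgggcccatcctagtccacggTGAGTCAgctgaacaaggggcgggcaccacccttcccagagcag
Sdcbp2 stood at 76.6 CPM in members and 7.29 CPM in other T cells and was higher in members in 6 of 6 tags. The motifs were searched on both strands from 250 bases before to 50 after the start, and overlaps between motifs were allowed. Promoters were found for 78 of the 121 genes called higher, and 3 of the 78 (3.85%) held TGTTTAC, against 2.77% of the 5767 promoters of genes tested and 3.55% of the 27025 mouse promoters searched. The AP-1 motif was in 6 of the 78 (7.69%), against 4.73% of genes tested and 7.93% of all. The STAT motif TTCNNNGAA was in 7 of the 78 (8.97%), against 6.66% of genes tested and 8.47% of all. Both backgrounds lay inside the intervals of the called genes for each motif.

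Cytotoxic genes were mostly lower in members. Of 21 tested cytotoxic effectors, 13 were called lower and none higher, with a median log2 ratio of -1.13. Gzma (granzyme A) ranged from 0 to 42 CPM over the tags in members, with a median of 13.1, against 110 to 1370 CPM, with a median of 650, in other T cells. The groups did not overlap and the median log2 ratio was -4.04. Nkg7, a granule membrane protein, ranged from 143 to 901 CPM in members, with a median of 516, against 431 to 2044 CPM, with a median of 1468, in other T cells, and was lower in members in 6 of 6 tags. Klrd1 (CD94), an NK receptor chain, stood at 344 CPM in members and 824 CPM in other T cells. Prf1 stood at 120 CPM in members and 285 CPM in other T cells, and the chemokine Ccl5 at 772 CPM in members and 2144 CPM in other T cells.

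Which other T cells supplied these genes differed by gene. Gzma stood at 967 CPM in other T cells without Cd8 UMIs and 17.0 CPM in those with them, whereas Ccl5 stood at 884 CPM without and 3285 CPM with Cd8 UMIs. At least 2 UMIs of the 5 NK genes were counted in 36.1% of other T cells without Cd8 UMIs. When all barcodes with 2 or more of these UMIs were left out of both classes, Gzma had too few UMIs to be tested, Prf1 moved to a median log2 ratio of -0.65 and lost its call, and Nkg7 kept its call at -2.94. Gzmc then lost its call at -0.23, as did Gzmd and Gzmf at 0. The list then had 10 genes called lower of 18 tested. Without the members with Ikzf2 alone it had 17 of 21. That setting moved the median log2 ratio of Gzmc to -4.89, against -1.01 with them, of Nkg7 to -2.77, against -1.49, of Klrd1 to -3.18, against -1.51, and of Prf1 to -3.14, against -1.90. Gzmc also lost its call with the mean of per-cell CPM, at -0.95, and, with Gzmd, when cells needed 1000 genes. Gzmc, Gzmd and Gzmf lost their calls when 1 of several tags was left out (D0, D1 or U3 for Gzmc, D0 for Gzmd, D0, U2 or U3 for Gzmf), and near-identical copies in the granzyme and Klra clusters could share reads.

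Against the 255 other T cells without Cd8 UMIs, compared in the 5 tags with at least 10 of each class, 193 of 6157 genes (3.13%) were called higher in members and 66 (1.07%) lower. Of the 193 genes, 95 were also called higher against all other T cells, which is 49.2% of the 193 and 78.5% of the 121. Both comparisons share the members, and the second class is part of the first, so this overlap is no independent support. Pdcd1 (PD-1) stood at 128 CPM in members, 40.9 CPM in other T cells without Cd8 UMIs and 208 CPM in those with them, and was called higher in members only against the cells without. Ifi27l2a, an interferon-responsive gene, stood at 4692 CPM in members, 873 CPM without Cd8 UMIs and 2182 CPM with them. Of 12 tested type I interferon genes, 4 were called higher against cells without Cd8 UMIs and none against cells with them, at a list median of 0.90 against the first and -0.01 against the second, and the difference between these 2 contrasts was not tested. Of 17 NF-kB and TNF receptor genes, 4 were called higher and 1 lower against cells without Cd8 UMIs, and those called higher were Rel, Nfkbia, Traf1 and Tank. Nfkbia, the inhibitor of NF-kB, stood at 1451 CPM in members, 616 CPM without Cd8 UMIs and 690 CPM with them, and Rel, a subunit needed for regulatory T cell development, at 496 CPM in members, 177 CPM without and 253 CPM with them.

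Against the 318 other T cells with Cd8 UMIs, 158 of 6273 genes (2.52%) were called higher in members and 32 (0.51%) lower. Of 7 tested NK genes 3 were called higher in members, Ncr1, Klra7 and Tyrobp, and 1, Klre1, lower, and Tyrobp stood at 430 CPM in members and 122 CPM in these cells. Gzmc stood at 2592 CPM in members and 78.8 CPM in other T cells with Cd8 UMIs, and 1374 of its 1725 UMIs in members were in the Ikzf2-alone barcodes. Ctla4 stood at 144 CPM in other T cells with Cd8 UMIs and 76.8 CPM in those without, and members were called higher against both. Ifng stood at 147 CPM in members and 303 CPM with Cd8 UMIs, and was called lower. The egress receptor S1pr1 stood at 22.5 CPM in members and 117 CPM with Cd8 UMIs, and was called lower against all other T cells as well, but its direction turned when cells needed 1000 genes, at a median log2 ratio of 0.05, and its call was lost without D0, D4 or U3, when a member needed a Foxp3 UMI and with barcodes of more than 1 tag kept. Of 21 tested cytotoxic effectors, 3 were called higher in members than in these cells, Gzmc, Gzmd and Gzme. Another 8 were called lower, Nkg7, Ccl3, Ccl4, Ccl5, Klrd1, Klrc1, Gzmk and Ifng. The Gzmd call rested on few cells. Of its 289 UMIs in members, 189 came from 1 of the 165 members with Il2ra or Tnfrsf4 but no Foxp3 UMI. A further 100 came from 5 of the 60 Ikzf2-alone members. Gzmd was higher in members than in these cells in 3 tags and lower in none.

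**Figure D5:**
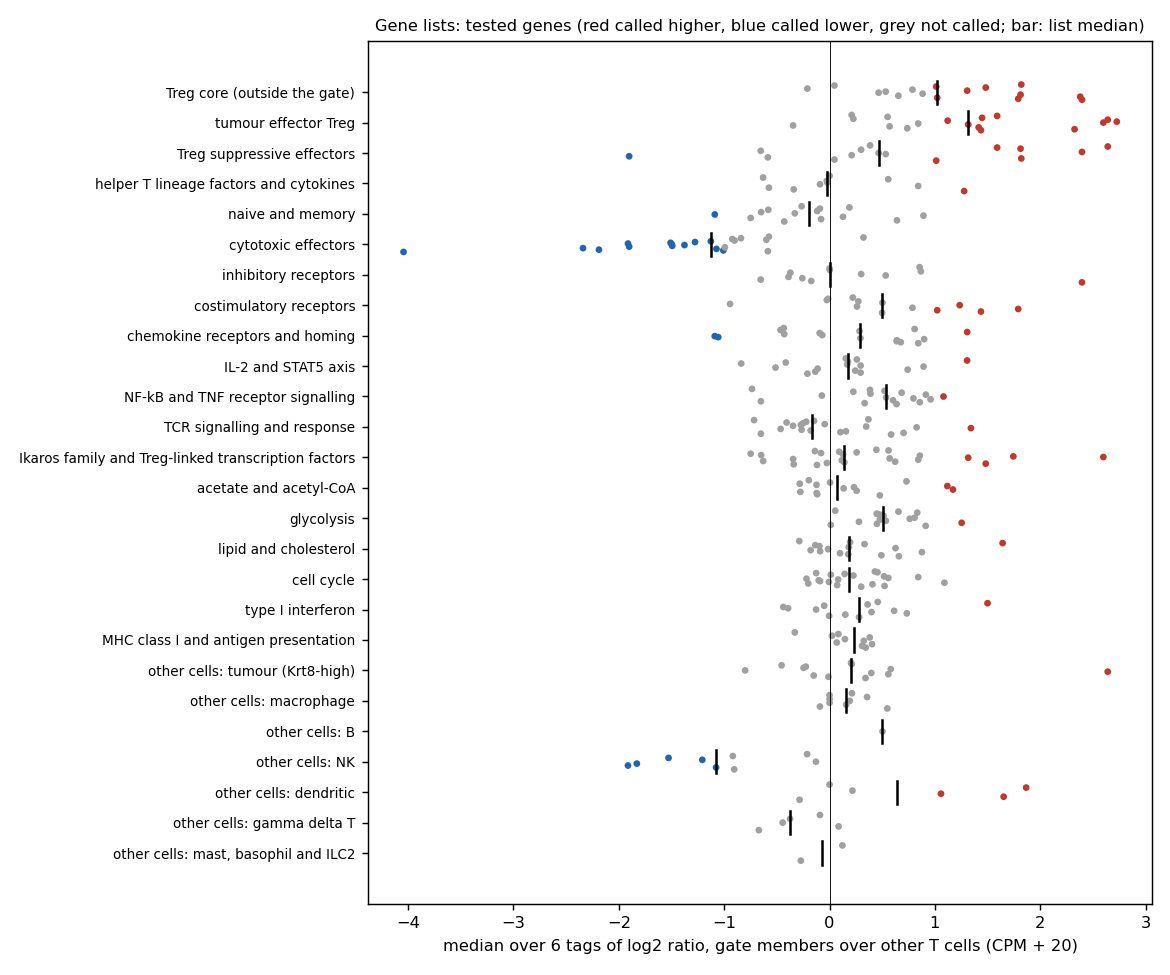
Median over the 6 tags of the within-tag log2 ratio of gate members over other T cells, on (CPM + 20), for each tested gene of the 26 lists (rows); red points were called higher, blue points lower, grey points neither, and the black bar is the median of the list. The 2 lists of regulatory T cell genes at the top have medians of 1.02 and 1.32, and cytotoxic effectors -1.13.

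Naive and memory genes, cell cycle genes and MHC class I genes gave few calls. Among 14 naive and memory genes none was called higher and 1, S1pr1, lower, against all other T cells. Klf2, a factor of resting T cells, stood at 212 CPM in members and 811 CPM in other T cells, but the pooled value rested on U3, where other T cells had 2257 CPM, and the median log2 ratio was -0.33. None of 20 cell cycle genes and none of 10 MHC class I genes was called in either direction. Among 12 inhibitory receptors only Ctla4 was called. Of 13 costimulatory receptors 4 were called higher, Icos, Tnfrsf18, Tnfrsf9 and Cd2, and none lower, and only Cd2 was not already counted above. Against all other T cells, 1 of 10 helper T cell genes was called higher (Cd4), 1 of 20 T cell receptor genes (Cd5), 1 of 17 NF-kB genes (Traf1) and 1 of 13 interferon genes (Ifi27l2a), and none of these lists had a gene called lower. The Ifi27l2a call was lost when a member needed a Foxp3 UMI, at a median log2 ratio of 0.93. Of 16 chemokine receptor and homing genes Itgae was called higher and Cxcr6 and S1pr1 lower. The naive and memory list had more calls against the 2 parts of the other T cells. Tcf7 and Bach2 were called lower, of 14 tested, against those without Cd8 UMIs. Tcf7 and S1pr1 were called lower, of 13 tested, against those with Cd8 UMIs, and none was called higher against either part.

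Metabolic genes bear on the target of the compound. Acss2, the cytosolic and nuclear enzyme that makes acetyl-CoA from acetate, had 13 UMIs in members and 12 in other T cells, 19.5 CPM (10.4 to 33.4) in members against 9.73 CPM (5.03 to 17.0) in other T cells. The ratio of 2.01 had an interval of 0.845 to 4.82, so no difference was detectable at this depth. Acss1, its mitochondrial counterpart, had 4 UMIs in members and 11 in other T cells. Of 14 tested acetate and acetyl-CoA genes 2 were called higher and none lower. These were the lactate and proton exporter Slc16a3, at 88.6 CPM in members and 21.9 CPM in other T cells, and the acetyltransferase Kat2b, at 33.1 CPM in members and 12.2 CPM in other T cells. The Kat2b call rested on 22 UMIs in members and 15 in other T cells and was lost without any of D1, D4, U3 or U4, under TMM and with cells thinned to 1000 UMIs. The Slc16a3 median log2 ratio of 1.17 came to 0.68 with cells thinned to 1000 UMIs, 0.91 with the mean of per-cell CPM and 0.85 with barcodes of more than 1 tag kept, each of which ended its call. Of 16 glycolysis genes 1 was called higher, Hk2, with a median log2 ratio of 0.51 over the list, and Ldha stood at 870 CPM in members and 524 CPM in other T cells, with no overlap over the tags. Fabp5, a fatty acid carrier, stood at 158 CPM in members and 43.8 CPM in other T cells, and was the only one of 16 lipid genes called.

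Of 6 tested dendritic cell genes 3 were called higher in members, Cd74, H2-Ab1 and H2-Aa, all of MHC class II antigen presentation. Cd74, the class II invariant chain, ranged from 39.3 to 1395 CPM over the tags in members, with a median of 323, against 13.5 to 490 CPM, with a median of 48.7, in other T cells. The highest value in both classes was in D1, the tag where macrophage genes were also highest, with Lyz2 at 892 CPM in members and 668 CPM in other T cells. The summed level of 10 macrophage genes was 1169 CPM in members, from 27.4 to 2761 CPM over the tags, against 314 CPM, from 11.2 to 1522 CPM, in other T cells, and none of the 10 was at 0 in either class. At least 2 UMIs of 6 macrophage and B cell genes were counted in 6 members and 5 other T cells. Without these barcodes Cd74 stood at 378 CPM in members and 32.4 CPM in other T cells, and H2-Ab1 at 88.6 CPM in members and 5.81 CPM in other T cells. H2-Aa lost its call without them, and also without D1, D4 or U2, and with cells thinned to 1000 UMIs. Without the barcodes with NK genes, H2-Aa and H2-Ab1 had too few UMIs to be tested. Those NK genes include Tyrobp, which macrophages also carry, so that setting can remove barcodes with macrophage RNA too.

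Markers of other cells were measured the same way. The summed level of 20 tumour cell genes was 3468 CPM in members, 3115 CPM in other T cells and 39862 CPM in tumour cells, and Krt7, Krt19, Cldn4, Cldn7 and Krt16 were at 0 in both T cell classes. Of 13 tested tumour cell genes Areg alone was called, and none of 9 macrophage, 1 B cell and 2 mast cell, basophil and ILC2 genes was. Of the B cell genes, Cd79a, Ms4a1, Pax5 and Bank1 were at 0 in members, and Ighm stood at 143 CPM in members and 103 CPM in other T cells. The 9 NK genes summed to 1466 CPM in members, from 57.2 to 2039 CPM over the tags, and to 2345 CPM in other T cells, from 404 to 4587 CPM, and 5 of the 9 were called lower in members, Klrb1c, Klre1, Klra4, Klra8 and Tyrobp. Without the members with Ikzf2 alone 8 of the 9 were called lower. The Klrb1c call was lost without D0, D1 or D4. Of the 5, Klra8 had no UMI in members and 44.6 CPM in other T cells. It was 9.89-fold lower when a floor of 3 UMIs over all members is used, and the exact upper limit of its ratio was 0.129. The Klra8 call was lost with cells thinned to 1000 UMIs, and with barcodes of more than 1 tag kept, at a median log2 ratio of -0.997. It was also lost when a member needed a Foxp3 UMI, at -0.86. The 7 gamma delta T cell genes summed to 67.6 CPM in members and 136 CPM in other T cells, and none of 5 tested was called. The part of these other cells in the differences was not tested beyond the values given here.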

How the data were processed

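One 10x single-cell expression library of a pool of 6 tumour samples, with a tag library for the same barcodes, was analysed. The deposited matrix holds UMI counts per gene and barcode. The submitters' processing notes name Cell Ranger and the build mm10, and per the file headers the software version was 3.1.0. The gene annotation and the strand setting are not given in the sources used here.

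Tags were called with HTODemux (Seurat 5.3.0, R 4.3.3, quantile 0.99) on the 8784 barcodes past the limits on genes and mitochondrial UMIs, and 865 barcodes with more than 1 tag (9.85%) were left out. Doublets within 1 tag remain. The members were chosen by the gate given in the report, and the members, the 26 gene lists and the comparisons were chosen with earlier results of these data known. UMIs were summed per class and tag and divided by the total, with Poisson intervals for CPM and Clopper-Pearson intervals for shares (scipy 1.17.1). Genes needed 20 UMIs over both classes and tags 10 cells of each class. No p-value was computed, because the pool is 1 library whose tags have no known arm. The calls were tried on simulated Poisson counts that had the depths of the classes and no other variation between cells or tags. Of 50 genes at each fold, 100% were called at 4-fold and 90% at 0.25-fold. At 2.5-fold 58% were called, and at 0.4-fold 68%. Of 6874 unchanged genes 0 were called, but counts this even cannot show how often uneven counts of real cells give a false call. Named genes were the 5 markers, Cd4, Acss2, Acss1, the 12 called higher and 8 called lower with the largest median ratio at 50 UMIs or more, and per list up to 5 called genes, or the 3 with most UMIs where under 2 were called, and genes named beyond these were chosen after their values were seen. Gene positions came from GENCODE M21, which held 30934 of 31053 gene IDs. Alternatives changed the gate, limits, doublets, scaling, pseudocount, depth and tags. A few genes are not reported here.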

Additional observations from a re-analysis of the deposited data

Results flagged for a closer look

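Of 50 results with 6 tag values, 2 had 1 tag that stood apart from the other tags by Dixon's 95% criterion, a number near the 1 in 20 that chance marks. Bmyc, a relative of Myc, had a log2 ratio of members over other T cells of -0.032 in D4, against 1.77 to 2.06 in the other tags, and D4 held 18 members with 30.0 CPM of Bmyc and 16 other T cells with 31.1 CPM. Samsn1 had a log2 ratio of 0.71 in U4, against 1.05 to 1.25 in the other tags, so it was higher in members there too. The cause of either value was not tested.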

How the results depend on the processing

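The member share of T cells, 33.6%, was 29.3% with 3 gate UMIs, 7.53% with at least 1 Foxp3 UMI, 40.1% with at least 1000 genes, 28.6% without members with Ikzf2 alone, and 27.2% to 43.0% with 1 tag left out. Against other T cells, the 121 genes called higher became 79 under TMM, 219 with a pseudocount of 5 CPM and 208 without members with Ikzf2 alone, and ran from 117 to 167 with 1 tag left out. The 40 called lower became 63 with 3 gate UMIs, 131 with at least 1 Foxp3 UMI, 65 under TMM, 73 with a pseudocount of 5, 74 with totals without mitochondrial and ribosomal protein genes, 63 without barcodes with NK UMIs and 116 without members with Ikzf2 alone, and ran from 33 to 48 with 1 tag left out. Against other T cells without Cd8 UMIs, the 193 called higher became 294 with a pseudocount of 5 and ran from 186 to 253 with 1 tag left out. The 66 called lower became 134 with at least 1 Foxp3 UMI, 113 without mitochondrial and ribosomal totals and 122 without members with Ikzf2 alone, and ran from 58 to 71 with 1 tag left out. The cause of these moves was not tested. The settings on members with Ikzf2 alone and on barcodes with NK UMIs were chosen after seeing the data. Of 47 named called genes, 18 kept their call under all 23 settings and 38 kept it without each tag in turn. Over the 1081 pairs of gene and setting, 987 kept the call, 90 lost it and 4 turned direction, which were Itgae at -0.14 and S1pr1 at 0.046 with 1000 genes, Klra4 at 0.20 without barcodes with NK UMIs, and Penk at -0.89 with a Foxp3 UMI. The NK list went to 2 genes called lower, against 5, with cells thinned to 1000 UMIs, to 8 with a Foxp3 UMI or without members with Ikzf2 alone, and to 1 of 3 tested without barcodes with NK UMIs. The classes were compared within each tag. No paired analysis by replicate number was possible because the labels give 1 pool and no replicate numbers. Depth limits low genes such as Acss2, and a tag with 18 members sets a wide error on its own values.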

Other observations

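Other genes high in members belong to groups the comparisons above do not cover. Ass1, argininosuccinate synthase of the urea cycle and arginine synthesis, stood at 164 CPM in members and 31.6 CPM in other T cells and was higher in members in 6 of 6 tags. Arl5a, a small GTPase of the Golgi, stood at 227 CPM in members and 43.0 CPM in other T cells, also in 6 of 6 tags. The Ass1 call was lost when a member needed a Foxp3 UMI, at a median log2 ratio of 0.78. Pim1, a kinase induced by interleukin-2 signalling, was the 1 gene of 16 tested on that axis that was called, at 673 CPM in members and 274 CPM in other T cells. Under TMM its median log2 ratio of 1.31 came to 0.99, which ended the call. Il2rb, the shared receptor chain of interleukin-2 and interleukin-15, stood at 329 CPM in members and 373 CPM in other T cells and was not called. Cxcr6, a chemokine receptor of tissue T cells, stood at 125 CPM in members and 237 CPM in other T cells. It was called lower, with a median log2 ratio of -1.06 that came to -0.99 without D0, U2 or U4. The call was also lost with 3 gate UMIs, at -0.95, with barcodes of more than 1 tag kept, at -0.98, without members with Ikzf2 alone, at -0.90, and with 1000 genes, at -0.32.

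The share of members with Ikzf2 UMIs alone also varied by tag, from 8.0% of the 25 members in U3 to 35.1% of the 37 in D0, and the share with a Foxp3 UMI from 12.2% in U2 to 28.0% in D1. Values for tags are given without comparison of arms.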
